A study of Chlorocebus sabaeus with 18 samples.

Results

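Of 483868 exon features on Clariom D Human arrays hybridised with COS-7 RNA, 441 (0.0911%) had a mean log2 signal that rose by over 1.5 with the CGG repeat construct in each of 3 pairs of groups. A feature is either an exon region, a stretch of a transcript covered by its own probes, or a junction, whose probes span the joint of exons. The members were selected on these rises, which are log2 differences of 3-array means, so the rises themselves are given as a description without a test. COS-7 cells derive from the kidney of the green monkey (Chlorocebus sabaeus), and the probes were designed against human transcripts, so host genes are named by the human annotation of their transcript cluster. A transcript cluster is the set of features that the array design assigns to 1 gene.

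The 18 arrays formed 6 groups of 3. Controls (CTL) carry no named transfection, and their condition labels end in COS-7, COS-6 and COS-5 although the cell line is named COS-7 for all. The CGG group was transfected with a 5' untranslated region of FMR1 holding 60 CGG repeats. GFP_TRA cells overexpressed TRA2A (GFP appears in the titles of this group alone), siTRA cells had TRA2A knocked down, and CGG_TRA and CGG_siTRA cells carried the construct with the same overexpression or knockdown. The CGG pair is CGG against CTL, the overexpression pair is CGG_TRA against GFP_TRA, and the knockdown pair is CGG_siTRA against siTRA. A construct lacking the repeat and a control siRNA are not among the groups, so the repeat cannot be told apart from the rest of the construct in any pair. In the CGG pair it cannot be told apart from transfection either. In the other pairs both sides were treated for TRA2A, but only 1 side also received the construct. There the repeat cannot be told apart from the added delivery of the construct. CGG array 1 and siTRA array 3 are labelled as rehybridised. Whether replicate arrays derive from separate cultures is not given in the labels, so p-values measure the spread between arrays, which may be technical.

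FMR1 encodes an RNA-binding protein, and an expansion of the CGG repeat in its 5' untranslated region underlies the fragile X-associated tremor/ataxia syndrome (FXTAS). RNA with expanded CGG repeats is known to gather in nuclear foci with RNA-binding proteins, among them splicing factors. TRA2A is a splicing activator that binds exonic enhancers. A junction probe reports the joining of a given exon pair and an exon region probe reports a stretch of sequence, so the signal of a feature can move when that of its gene as a whole does not.

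The targeted gene followed the labels. TRA2A lay between 14.49 and 14.71 on the log2 scale in the CTL and CGG arrays, between 18.39 and 18.70 with overexpression and between 17.11 and 17.22 with overexpression and the construct. With knockdown it lay between 11.20 and 12.04, and with knockdown and the construct between 11.63 and 11.96. VIM, the intermediate filament protein of mesenchymal and cultured cells (TC1000006891.hg.1), lay between 15.19 and 16.25 and PAX8, a transcription factor of the kidney lineage, between 9.75 and 11.41, while COL1A1, a fibrillar collagen of mesenchymal cells (TC1700008240.hg.1), lay between 7.43 and 9.01. The epithelial markers EPCAM and CDH1 lay between 11.96 and 12.83 and between 6.82 and 8.19. PAX2, another renal transcription factor, lay between 3.22 and 3.87, below the median of all clusters in every array (lowest median 4.14). The median exon-feature signal of an array lay between 7.37 and 7.54, and precision is limited by the number of arrays.

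CGG arrays 1 and 2 stood apart from each other for many of the members. CGG array 1, which is labelled as rehybridised and had the highest share, is used below to divide the members. It differed by over 1 from the mean of the other CGG arrays for 52.8% of the members and for 7.7% of all features. By the same measure CGG array 2 differed from the mean of the other CGG arrays, CGG array 1 included, for 45.6% of the members (6.7% of all features) and CGG array 3 for 15.6%. In the other groups CGG_TRA array 2 (28.3%), control array 2 (24.3%) and siTRA array 1 (22.0%) had the highest shares. CGG array 1 was lower for 123 members and higher for 110, and within 1 for 208. These sets were defined after the values were seen and from the same arrays, so nothing is tested between them. Results that rest on this array are given below with and without it.

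All 9 construct arrays lay above all 9 other arrays for 386 of the 441 members, and the groups overlapped in 55. Over all features this separation was seen in 1016 (0.21%), and 16 features showed the opposite order. The median over the members of the difference from the mean of the 9 arrays without the construct was 3.05, 2.90 and 3.23 in CGG arrays 1 to 3. It was 2.58, 2.11 and 2.24 in the CGG_TRA arrays and 3.00, 3.05 and 2.87 in the CGG_siTRA arrays. It lay between -0.25 and 0.28 in the arrays without the construct, and the median over all features lay between -0.05 and 0.03 in every array. The CGG_TRA arrays therefore held the lowest medians of the construct arrays, and the ranges of the CGG and CGG_siTRA arrays overlapped.

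**Figure D1:**
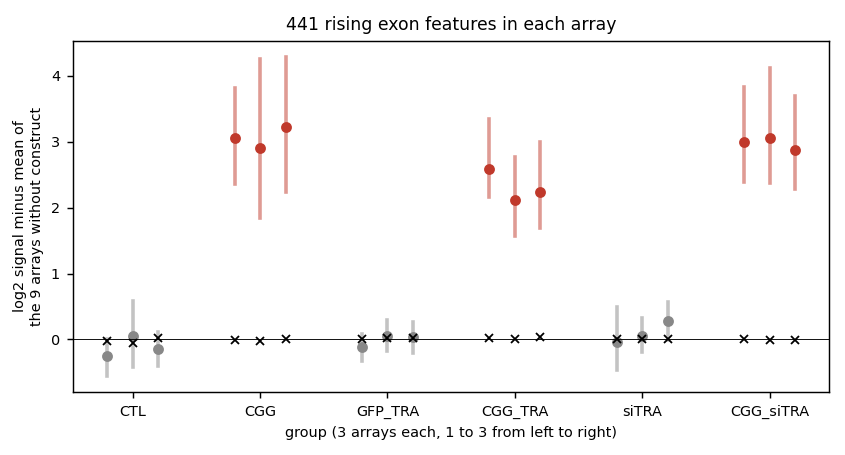
Median (points) and quartiles (bars) over the 441 members of the log2 signal minus the mean of the 9 arrays without the construct, for each of 18 arrays, with crosses for the median of all features; red marks groups with the construct and grey those without. The construct arrays lie between 2.11 and 3.23 and the others between -0.25 and 0.28.

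The members were junctions more often than the features of the array as a whole. Junctions made up 251 of 441 members, or 56.9%, against 34.3% of all features. Put the other way, 0.151% of 165844 junctions and 0.0597% of 318024 exon regions met the rule. The share of 56.9% has a 95% exact binomial interval of 52.1 to 61.6. That interval treats members as independent, although some share a host and all were measured and selected on the same arrays. It does not measure how the share would vary between cultures or arrays, so the shares are a description without a test. Above higher floors the junctions' part grew: they were 149 of 256 members with every rise over 2, 66 of 87 over 3, 28 of 33 over 4 and 15 of 16 over 5. Junction members rose by a median of 3.57, 2.42 and 2.93 in the CGG, overexpression and knockdown pairs, and region members by 2.73, 2.14 and 2.68. In all junctions together these medians were -0.01, -0.01 and -0.02.

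Members tended to have low signal without the construct. This level is the term subtracted in each rise, so the rule itself favours a low one, and the values are a description. The level in the 9 arrays without the construct had a median of 6.38, against 7.46 for all features, and with the construct the median was 9.65. Divided into quartiles by that level without the construct, the features held 164, 131, 109 and 37 members from the lowest quartile to the highest, or 0.136%, 0.108%, 0.0901% and 0.0306% of each. The spread between arrays of a group was wider in members (median pooled SD 0.57) than in all features (0.34). The members nearest the threshold had a smallest rise of 1.503, in junctions of TC0500010523.hg.1, TC0700013332.hg.1 and SLC2A4RG, and the nearest non-members had 1.5 (LRRC20 and RNF123) and 1.497 (FOXF1).

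The member with the largest mean rise was a junction of PLAU (JUC1000052527.hg.1), the urokinase plasminogen activator. It read 3.07, 2.59 and 3.44 in the controls and 12, 13.10 and 13.24 in CGG cells. With TRA2A overexpression it read 3.33, 3.16 and 4.21 without the construct and 11.88, 9.18 and 11.33 with it. With knockdown it read 5.71, 3.40 and 3.40 without and 12.67, 12.80 and 11.72 with it. The lowest construct array thus lay above the highest other array, and the rises were 9.75, 7.23 and 8.23. Its control readings are near the lowest level of any feature in the table (2.57), and detection calls were not used here, so a reading above background is not shown there and the size of the rise depends on that floor. The same holds for the leading LSR junctions. The PLAU gene-level signal changed by 0.14, 0.04 and -0.11 in the same pairs, and of the 20 PLAU features only 1 other junction was a member (4.08, 2.81 and 3.93).

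LSR, the lipolysis-stimulated lipoprotein receptor, was the host with the most members, 4 of 36 features, all junctions. Junction JUC1900053078.hg.1 read 3.08, 2.81 and 3.6 in controls and 10.29, 13.86 and 13.43 in CGG cells. It read 2.57, 3.36 and 2.87 in GFP_TRA against 11.13, 5.67 and 10.56 in CGG_TRA cells, and 3.41, 3.11 and 3.03 in siTRA against 12.40, 12.22 and 9.90 in CGG_siTRA cells. CGG_TRA array 2 was far below the other arrays of its group but still above every array without the construct. The rises of the 4 LSR junctions ran from 3.16 to 9.36 in the CGG pair, from 1.81 to 6.19 in the overexpression pair and from 2.23 to 8.32 in the knockdown pair. Junctions of one gene can share an exon end and so part of their probe sequence, and are not independent of each other. The other 32 LSR features had median changes of 0.08, 0.03 and -0.11, and the gene-level signal changed by 0.33, -0.01 and -0.05.

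The other leading members were junctions too. REG1A and REG1B, paralogs that encode secreted lectins of the pancreas and gut, each had 1 member junction of 5 features. The REG1A junction (JUC0200053385.hg.1) read 6.42, 5.56 and 6.29 in controls and 13.04, 15.26 and 14.75 in CGG cells, with rises of 8.26, 5.71 and 6.74. The REG1B junction rose by 7.43, 5.25 and 6.0. The probes may not separate these paralogs. EMILIN1, an elastin-associated glycoprotein (7.76, 5.85 and 6.28), PUSL1, a pseudouridine synthase-like protein (7.25, 5.14 and 6.86), and CLEC17A, a C-type lectin (7.75, 5.15 and 6.03), were also larger in the CGG pair than in either other pair. AGTPBP1, a carboxypeptidase that removes glutamate from tubulin, differed less between pairs (6.01, 6.31 and 6.21). Its junction read 5.41, 6.26 and 5.26 in controls against 12.02, 10.88 and 12.05 in CGG cells, 4.40, 5.16 and 5.72 against 11.68, 11.16 and 11.36 with overexpression, and 4.61, 6.55 and 6.17 against 11.78, 12.02 and 12.16 with knockdown. Junctions of TC0300011028.hg.1 (7.44, 5.92 and 6.67), TC0800009807.hg.1 (6.23, 5.62 and 6.80) and TC0700011011.hg.1 (5.54, 5.68 and 6.08) completed the 12 largest mean rises. In the last 2 clusters and in AGTPBP1 the CGG pair did not give the largest rise.

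**Figure D2:**
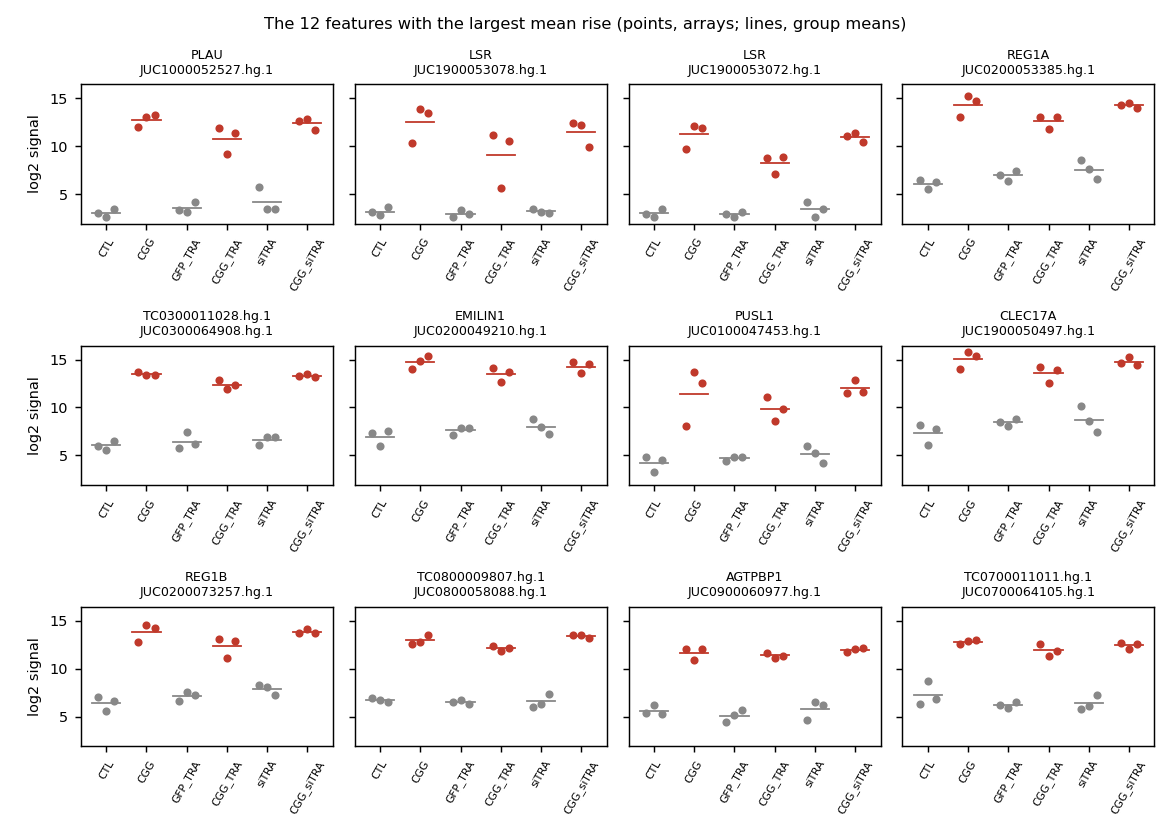
Log2 signal of the 12 features with the largest mean rise in all 18 arrays, by group, with red points for arrays with the construct, grey points for arrays without it and lines for group means. In every panel the construct arrays lie above the other arrays; CGG_TRA array 2 is the low point of LSR JUC1900053078.hg.1, at 5.67.

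The 441 members lay in 395 transcript clusters, of which 331 have 1 gene symbol, 26 several and 38 none. A host had 1 member in 358 cases, 2 in 29, 3 in 7 and 4 in 1. Hosts had a median of 30 features, against 2 for the 43111 clusters of the exon table. Of the 358 hosts with a single member, 357 had at least 2 features, so other features of the cluster did not meet the rule. The remaining one, TC1500007167.hg.1, has 1 feature in all.

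The other 13492 features of the hosts had median changes of -0.00, -0.01 and -0.01 in the CGG, overexpression and knockdown pairs. A rise over 1.5 was seen in 100 of them (0.741%) in the CGG pair, in 23 (0.17%) in the overexpression pair and in 52 (0.385%) in the knockdown pair. In features of all other clusters these shares were 0.529%, 0.119% and 0.122%. Since features just short of the rule fall here by construction, these shares are given as values only.

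Hosts with several members showed the same contrast with the rest of their features. MYD88, the adaptor of Toll-like and interleukin-1 receptors, had 3 member junctions of 21 features, with CGG-pair rises from 4.47 to 6.58, overexpression-pair rises from 2.22 to 3.70 and knockdown-pair rises from 3.93 to 5.71. MACROH2A1, a histone H2A variant of repressed chromatin, had 3 of 49 (CGG-pair rises from 3.19 to 3.81), and its junctions did not have their smallest rise in the same pair. ACHE, acetylcholinesterase, had 3 of 20 (3.00 to 4.80). TBCD, a tubulin folding cofactor, had 3 of 105 (2.63 to 6.03). Clusters TC0100018434.hg.1, annotated to MYCBP and GJA9, and TC1100006491.hg.1, annotated to RPLP2 and SNORA52, had 3 of 29 (3.79 to 6.36) and 3 of 20 (2.88 to 5.27). In TC0500010523.hg.1 the members were 2 junctions and 1 region of 10 features (1.5 to 3.01). The non-member features of these hosts had medians between -0.26 and 0.58 in the CGG pair.

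Families were also seen among the hosts, picked out after the values were seen and given as values only. No share of member features was computed for a family, to set beside the 0.0911% of all features. FGFR1, FGFR2 and FGFR4, receptor tyrosine kinases for fibroblast growth factors, held 4 member junctions, with CGG-pair rises of 1.98, 6.0, 4.23 and 5.93. The ferritin heavy chain pseudogenes FTH1P7 and FTH1P8 each held a member region (2.93 and 4.76 in the CGG pair), and probes for them may read the ferritin gene itself. By the chromosome number in the human cluster ID, the share of features that were members was highest for chromosome 19 (42 of 29295, 0.143%). Among the chromosomes that held a member it was lowest for X (3 of 15518, 0.0193%) and 21 (1 of 5449, 0.0184%), and chromosome Y held 0 of 1209 features.

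At the gene level the hosts moved little. Their median change was 0.14 in the CGG pair (range -1.15 to 1.62), 0.04 in the overexpression pair (-0.55 to 1.73) and -0.02 in the knockdown pair (-0.96 to 1.89), beside -0.01, 0.00 and -0.01 for all 135750 clusters. A gene-level rise over 1 was seen in 11, 5 and 4 of the 395 hosts. Averaged over the pairs, the feature rose by a median of 2.65 more than its gene (0.00 to 8.37). The gap was smallest for TC1500007167.hg.1, whose gene-level value is that of its single region, for BHLHA15, a transcription factor of secretory cells (feature rises of 2.56, 1.54 and 1.97 against gene-level changes of 1.18, 0.92 and 1.19), and for RPL3L, a ribosomal protein of striated muscle (1.77, 2.49 and 2.66 against 0.78, 1.27 and 0.64). The gap was largest for the leading PLAU and LSR junctions.

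**Figure D3:**
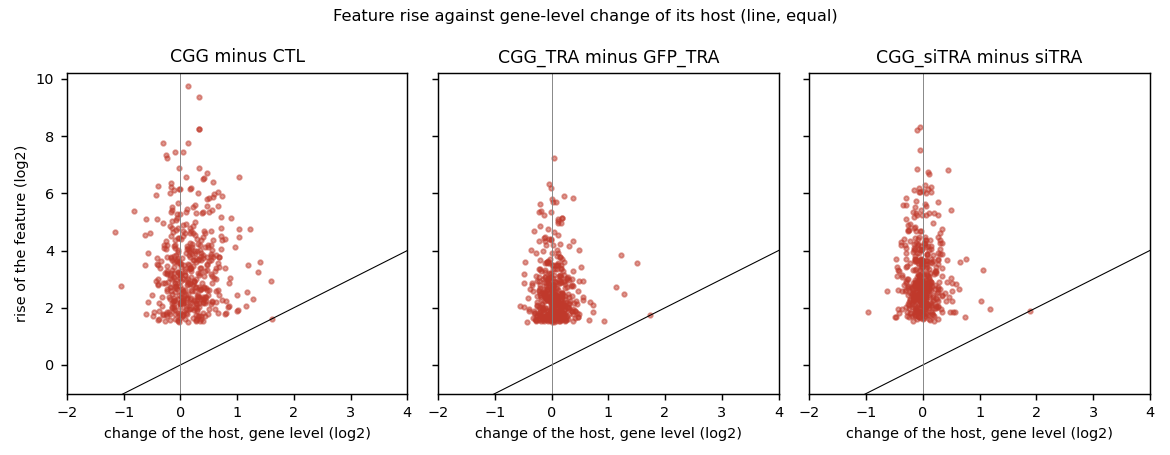
Rise of each member (vertical, log2) against the gene-level change of its host (horizontal, log2) in the 3 pairs, 1 point per member, with a line where both are equal. The points gather around a gene-level change near 0 (medians 0.14, 0.04 and -0.02), and the point on the line in each panel is TC1500007167.hg.1.

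The same rule applied to gene-level values, a rise over 1.5 in all 3 pairs, was met by 1 of 135750 clusters (0.000737%), TC1500007167.hg.1, with 1.62, 1.73 and 1.89. Its values were 5.47, 6.59 and 6.14 in controls against 8.39, 6.81 and 7.86 in CGG cells. They were 5.66, 5.26 and 5.32 against 7.04, 7.59 and 6.80 with overexpression, and 5.31, 5.43 and 5.37 against 7.16, 7.97 and 6.64 with knockdown. The construct arrays lay above the others, with the nearest pair of arrays at 6.59 and 6.64. The cluster carries no gene symbol in the annotation used.

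In the CGG pair 10 hosts passed limma at the gene level, 9 higher and 1 lower, beside 0.255% of all clusters. This contrast was part of the rule and the gene-level value includes the member's probes, so nothing is read from the count. The called hosts included FTH1P7 (1.59), MVD, mevalonate diphosphate decarboxylase of sterol synthesis (1.40), SFXN3, a mitochondrial serine transporter (1.36), FTH1P8 (1.22), EPB41L1, a membrane skeleton protein (1.16), and MYD88 (1.03). NALCN, the sodium leak channel, fell by 1.15 at the gene level while its member region rose by 4.65. The count was 5 without control array 1, and 6 without any one of CGG arrays 1 and 3, GFP_TRA arrays 1 and 3, siTRA array 3, CGG_TRA arrays 1 and 2, or CGG_siTRA array 2. In the overexpression pair limma called 0 hosts (0.00295% of all clusters, 28 hosts at an unadjusted p under 0.05). In the knockdown pair limma called 0 of all clusters, with 23 hosts at an unadjusted p under 0.05.

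For the features themselves the same kind of count was 396 members called higher in the CGG pair (1.62% of all features), 206 in the overexpression pair (0.0546%) and 308 in the knockdown pair (0.111%). These counts follow from the rule and are not read as results.

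The size of the rise differed between pairs. Its median was 3.18 in the CGG pair (quartiles 2.29 and 4.17, highest 9.75), which is 9.08-fold. It was 2.27 in the overexpression pair (1.81 and 2.94, highest 7.23), or 4.83-fold, and 2.78 in the knockdown pair (2.26 and 3.68, highest 8.32), or 6.85-fold. Over all features the changes also spread more widely in the CGG pair (quartiles -0.28 and 0.28). Those quartiles were -0.18 and 0.19 in the overexpression pair and -0.18 and 0.18 in the knockdown pair. The ratios and differences between pairs given below were not adjusted for this wider spread. The ratio of the rise in the overexpression pair to that in the CGG pair had a median of 0.74 and ran from 0.34 to 1.91. The ratio of the knockdown pair to the CGG pair had a median of 0.93 and ran from 0.37 to 2.08. The rises in the overexpression and knockdown pairs, which share no array, had a Pearson correlation of 0.88 and a Spearman correlation of 0.81 over the 441 members. Both rises were part of the rule, and the features of a pair were measured on the same arrays. No correlation over all features was computed, so these values only describe the selected members.

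**Figure D4:**
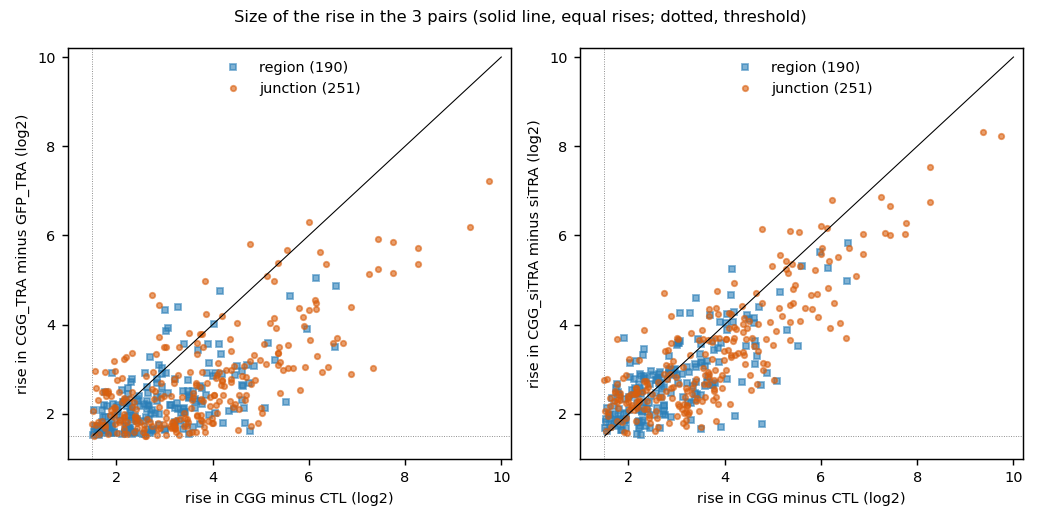
Rise in the overexpression pair (left) and the knockdown pair (right) against the rise in the CGG pair, log2, for 251 junctions and 190 regions, with a solid line where the rises are equal and dotted lines at the threshold of 1.5. In the left panel 350 of 441 points lie below the line and in the right panel 271.

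The rise in the overexpression pair was below that in the CGG pair in 350 members, above it in 90 and equal in 1, with a median difference of -0.83 (0.00 for all features). The median was -1.19 in junction members and -0.56 in region members. Limma called 6 members smaller and 0 larger in the overexpression pair, beside 0.274% and 0.159% of all features. An unadjusted p under 0.05 was seen in 166 members, all of them smaller. Counts at an unadjusted p, here and elsewhere, were made for members or hosts only. The share over all features or clusters was not counted, so nothing is read from them. The rule puts a floor on each rise and used the same arrays, so the sizes compared are those of selected features. The fold of TRA2A itself was not alike in these groups, since it was lower in CGG_TRA than in GFP_TRA arrays, and the part of this in the difference was not tested. Without any one array the median difference stayed between -0.75 and -0.97. The count of 350 was 307 without CGG array 1, the lowest, and 396 without CGG array 2, the highest.

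Among the 6 called members, the junction of KMT5C (JUC1900058322.hg.1), a histone H4 methyltransferase, read 10.28, 10.11 and 9.99 in controls and 13.87, 13.88 and 14.09 in CGG cells. It read 10.63, 11.03 and 10.89 in GFP_TRA and 13.18, 11.90 and 12.60 in CGG_TRA cells. Construct and other arrays did not overlap in either pair, but the GFP_TRA arrays were above the controls and the CGG_TRA arrays below the CGG arrays, so both ends narrowed the rise, from 3.82 to 1.71 (difference -2.11 ± 0.37 SE, limma adjusted p = 0.0184). The junction of NKD1 (JUC1600052896.hg.1), an inhibitor of Wnt signalling, read 4.84, 5.12 and 4.88 in controls, 9.14, 8.95 and 9.87 in CGG, 5.27, 5.55 and 5.29 in GFP_TRA and 8.12, 7.16 and 7.66 in CGG_TRA cells. Here the CGG_TRA arrays lay between the other groups, and the GFP_TRA arrays were again above the controls. The difference of rises was -2.10 ± 0.38 (limma adjusted p = 0.0243).

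A region of FTH1P8 (PSR0X00158749.hg.1) read 9.35, 9.77 and 10.29 in controls, 14.63, 14.54 and 14.52 in CGG, 10.88, 10.44 and 11.37 in GFP_TRA and 13.86, 13.39 and 13.52 in CGG_TRA cells. Its rises of 4.76 and 2.69 differed by -2.07 ± 0.39 (adjusted p = 0.0282). A region of HSPD1 (PSR0200212467.hg.1), the mitochondrial chaperonin, read 7.55, 7.45 and 8.13 in controls, 11.35, 12.12 and 11.82 in CGG, 8.26, 8.08 and 8.03 in GFP_TRA and 10.73, 9.58 and 10.10 in CGG_TRA cells (difference -2.04 ± 0.39, adjusted p = 0.0297). In both, every CGG_TRA array lay below every CGG array. The junction of CYP2W1, a cytochrome P450 (-1.98 ± 0.40, adjusted p = 0.0422), and a region of TC1500010797.hg.1 (-1.96 ± 0.41, adjusted p = 0.0465) were the other called members.

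The count of 6 rested on single arrays. It was 61 without CGG array 1, 15 without CGG_TRA array 1, and 10 and 11 without control arrays 2 and 3. It was 2 without CGG array 2, 0 without GFP_TRA array 3, and 1 without any one of control array 1, CGG array 3, GFP_TRA arrays 1 and 2, and CGG_TRA arrays 2 and 3.

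The rise in the knockdown pair was below that in the CGG pair in 271 members and above it in 170, with a median difference of -0.25. Leaving out single arrays gave medians from -0.14 to -0.40. The count of 271 then ran from 244 (without siTRA array 3) to 315 (without CGG array 2), and was 248 without CGG array 1. Limma called 2 members smaller (0.261% of all features) and 0 larger (0.149%), with 47 members at an unadjusted p under 0.05, 4 of them larger. These were FTH1P8 (-2.12, adjusted p = 0.0245), whose siTRA arrays read 11.84, 11.80 and 11.17 against 14.50, 13.97 and 14.26 with the construct, and KMT5C (-1.98, adjusted p = 0.0261), with 11.77, 11.31 and 11.57 against 13.37, 13.66 and 13.14. In both the siTRA arrays lay above all control arrays. The count of 2 was 6 without CGG array 1. It was 0 without control array 1, CGG array 2 or siTRA array 1, and 1 without CGG array 3, siTRA array 2 or 3, or any one CGG_siTRA array.

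The overexpression pair gave a smaller rise than the knockdown pair in 378 members, a larger one in 61 and an equal one in 2, with a median difference of -0.48 (-0.39 to -0.65 without single arrays). The count of 378 ran from 347 (without CGG_TRA array 3) to 403 (without siTRA array 3). Limma called 0 of all features in this comparison, and 52 members had an unadjusted p under 0.05, all smaller in the overexpression pair. No share over all features stands beside these 52, so they are given as a value only. The smallest p-values belonged to a junction of TC0500012370.hg.1 (-2.11 ± 0.49, limma unadjusted p = 0.000516) and that of NKD1 (-1.57 ± 0.38, limma unadjusted p = 0.0008).

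The ratio between the pairs varied from member to member. The 5 largest ratios of the overexpression to the CGG pair were all in junctions: PRSS16, a serine protease of the thymus (1.91), TMEM9B, a lysosomal membrane protein (1.71), JAG1, a Notch ligand (1.66), the antisense RNA HOXB-AS3 (1.64) and TRIM59, a RING-finger protein (1.64). The PRSS16 junction read 2.94, 3.70 and 3.00 in controls and 6.88, 3.95 and 3.46 in CGG cells, so its rise in that pair came from CGG array 1 and the other CGG arrays were close to the controls. It read 2.80, 3.21 and 2.95 in GFP_TRA and 6.27, 6.24 and 5.34 in CGG_TRA cells, without overlap. The TMEM9B junction read 8.45, 4.76 and 5.38 in CGG cells against 7.49, 9.22 and 8.20 in CGG_TRA cells, with all arrays without the construct between 3.06 and 4.03. The 5 smallest ratios were those of TTC8, a subunit of the BBSome (0.34), UBR1, a ubiquitin ligase of the N-degron pathway (0.36), CINP, a kinase-interacting protein (0.36), TC1900011533.hg.1 (0.36) and ALDH7A1, an aldehyde dehydrogenase (0.39).

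The position of CGG array 1 ran with these ratios. The CGG arrays that divide the sets also form the CGG rise in each ratio and difference. The sets and ratios are therefore not independent, and the values are a description. In the 123 members that were lower in it, 96 were junctions (78.0%), the median rises were 4.21, 2.29 and 3.32, and the difference of the overexpression and CGG pairs had a median of -1.86 and was above 0 in 0 members. PLAU, LSR, REG1A, PUSL1 and CLEC17A belong here. In the 110 members that were higher in it, 67 were junctions (60.9%), the median rises were 2.22, 2.38 and 2.54, and the difference had a median of 0.14 and was above 0 in 63. TMEM9B and PRSS16 belong here. In the 208 members within 1, 88 were junctions (42.3%), with median rises of 2.96, 2.22 and 2.76 and a median difference of -0.75.

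The same sets of members also moved apart in some arrays of other groups. Against the mean of the other arrays of its group, CGG_TRA array 2 had medians of -1.10 in the set of 123 and 0.41 in the set of 110. For control array 2 these were -0.34 and 0.85, for siTRA array 1 they were 0.63 and -0.61, for siTRA array 3 -0.32 and 0.80, and for CGG_siTRA array 2 they were 0.65 and -0.64. Both sets lay on the same side of 0 in CGG_TRA array 1 (0.63 and 0.15), siTRA array 2 (-0.20 and -0.16) and CGG_siTRA array 1 (0.02 and 0.27). Within any group the differences of its arrays mirror each other. Those of arrays of the same group, such as siTRA arrays 1 and 3, are therefore not separate observations. The movement was seen in groups with and without the construct, and its cause was not tested. In the GFP_TRA arrays the medians of both sets lay between -0.26 and 0.12. Some hosts had a member in each set. G3BP1, a stress granule protein, had a junction that read 11.67, 8.34 and 9.77 and a region that read 7.99, 10.64 and 9.89 in CGG arrays 1 to 3.

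**Figure D5:**
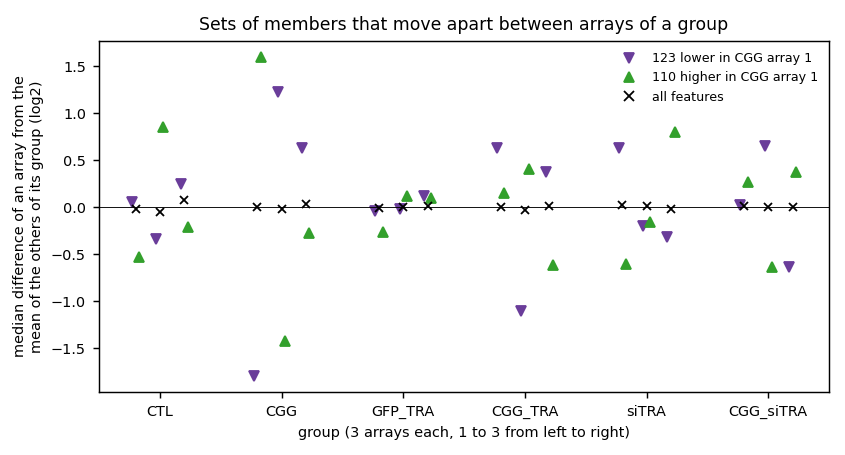
For each of 18 arrays, the median log2 difference from the mean of the other arrays of its group, for the 123 members lower in CGG array 1 (purple), the 110 members higher in it (green) and all features (crosses). The sets lie on opposite sides of 0 in CGG array 1, where the choice of the sets put them, and also, among others, in CGG_TRA array 2 (-1.10 and 0.41), control array 2 and siTRA arrays 1 and 3.

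Changes in TRA2A without the construct were not part of the rule, although they share arrays with it. With overexpression, 2 members were called higher by limma and 0 lower, beside 1.55% and 0.899% of all features, and 26 had an unadjusted p under 0.05. The MYD88 junction JUC0300049781.hg.1 went from 8.75, 8.86 and 9.82 in controls to 10.21, 10.77 and 10.86 in GFP_TRA cells, without overlap (1.47 ± 0.34, adjusted p = 0.0337), and the FTH1P8 region rose by 1.09 ± 0.27 (adjusted p = 0.0456). This count fell to 0 without control array 1 or GFP_TRA array 2 or 3, and 4 without CGG array 1. It was 1 without any one of control array 2, CGG array 3, GFP_TRA array 1, siTRA arrays 1 and 2, and the CGG_TRA and CGG_siTRA arrays. The called share of the members was below that of all features.

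With knockdown, 10 members were called higher and 0 lower, beside 2.25% and 1.62% of all features, and 58 had an unadjusted p under 0.05, 51 of them higher. The called share is close to that of all features. FTH1P8 rose by 1.80 (adjusted p = 0.00137), KMT5C by 1.42 (0.00507) and a region of HERC1, a giant ubiquitin ligase, by 1.73 (0.00728), and these 3 calls held without any single array. The HERC1 region read 11.47, 10.99 and 11.71 in controls and 13.19, 13.37 and 12.81 in siTRA cells, and the groups were far apart. A junction of TC1000009646.hg.1 (2.19), a region of TTC8 (2.43), the CYP2W1 junction (1.35), regions of CAMTA2, a transcription activator (1.25), and MFAP3, a microfibril-associated protein (0.80), and junctions of TC1900008564.hg.1 (1.49) and TC0100008061.hg.1 (0.91) were the others. The TTC8 region read 8.30, 8.23 and 9.0 in controls and 12.19, 10.84 and 9.80 in siTRA cells, which overlapped the CGG arrays at 12.07, 14.24 and 13.56. The count was 4 when control array 1 was left out and 5 without siTRA array 1.

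With the construct present, the median change of the members with TRA2A overexpression was -0.75, with 209 members at an unadjusted p under 0.05, 6 of them higher. Again no share over all features was counted beside these 209. Limma called 5 members lower and 0 higher, beside 0.0903% and 0.0238% of all features. They were NKD1 (-1.67 ± 0.27, adjusted p = 0.0235), HSPD1 (-1.63 ± 0.27, adjusted p = 0.0302), a junction of SH2D3C, a signalling adaptor (-1.53 ± 0.26, adjusted p = 0.0348), a region of GCHFR, the feedback regulator of GTP cyclohydrolase (-2.26 ± 0.40, adjusted p = 0.0391), and a region of TC0300006489.hg.1 (-2.27 ± 0.41, adjusted p = 0.0396). The GCHFR region read 10.43, 10.43 and 10.25 in CGG cells and 8.62, 6.74 and 8.98 in CGG_TRA cells, and 4.71 to 5.55 in the arrays without the construct. The groups did not overlap, and CGG_TRA array 2 was the lowest.

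The count of 5 became 44 when CGG array 1 was left out and 8 when CGG_TRA array 1 was. It became 1 for CGG array 2 and 0 for either CGG array 3 or CGG_TRA array 2. It was 2 without GFP_TRA array 2 or 3 or CGG_TRA array 3, and 3 without GFP_TRA array 1 or CGG_siTRA array 2.

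Knockdown of TRA2A with the construct present gave no called member. Limma called 0 of 441, beside 0.328% of all features in either direction, the median change was -0.08, and 19 members had an unadjusted p under 0.05. A region of FNDC5, the precursor of irisin, read 8.52, 8.97 and 8.57 in CGG and 7.57, 7.12 and 7.96 in CGG_siTRA cells (-1.14 ± 0.29, adjusted p = 0.135), and GCHFR differed by -1.30 ± 0.40 (adjusted p = 0.275). Leaving out CGG array 1 gave 4 and leaving out CGG_TRA array 2 gave 1.

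At the gene level, some hosts differed in the comparisons that the rule did not use. With overexpression against controls limma called 11 of 395 hosts, 9 higher and 2 lower, beside 0.415% of all clusters. TGM2, a transglutaminase, fell by 1.76 (adjusted p = 0.000172) and SYT12, a synaptotagmin, by 1.22, while HOXB-AS3 (1.23), SFXN3 (1.15), FTH1P7 (1.14) and MYD88 (1.08) were higher. With knockdown 18 hosts were called, 13 higher and 5 lower, beside 0.611%. FTH1P7 (1.28), FTH1P8 (1.22) and SFXN3 (1.18) were higher, and TENM3, a teneurin (-2.01), NALCN (-1.19), MACROH2A2 (-0.93), ARHGEF28 (-0.85) and CTCF, the insulator protein (-0.74), were lower. Hosts have more features than clusters in general, so the background share is not that of similar clusters.

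The gene-level rise of SFXN3 was smaller in the overexpression pair (-1.44 ± 0.22, adjusted p = 0.0146) and in the knockdown pair (-1.42 ± 0.22, adjusted p = 0.0168) than in the CGG pair, and that of MVD in the overexpression pair (-1.50 ± 0.27, adjusted p = 0.0394). SFXN3 was already higher without the construct in GFP_TRA (1.15) and siTRA cells (1.18) than in controls, beside its rise of 1.36 in the CGG pair. Both SFXN3 differences share the control and CGG arrays and are not separate observations. Without single arrays the SFXN3 call was lost once in the overexpression pair (CGG_TRA array 1) and 4 times in the knockdown pair (control array 1, siTRA array 1, CGG_siTRA arrays 1 and 3). The MVD call was lost without any one of 13 arrays. These were the only hosts limma called in the differences of rises, 2 beside 0.0803% of all clusters and 1 beside 0.0656%. With the construct present TGM2 was lower with overexpression (-1.43 ± 0.19, adjusted p = 0.00983; 0.0118% of clusters called) and FNDC5 with knockdown (-1.03 ± 0.17, adjusted p = 0.024; 0.056% called). Over these comparisons together 25 hosts were called, and 9 without control array 1. The member junction of TGM2 rose by 6.27, 2.93 and 4.49 and its member region by 1.56, 1.72 and 2.13, while the gene-level signal changed by -0.40, -0.06 and 0.03.

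Of 16 genes known to carry a CGG or CCG repeat near their start, 10 had features in the table under their symbol, alone or beside other symbols. The others had no features under the symbol looked up. Among the 372 features of these 10 genes 0 met the rule, beside 0.0911% of all features, a share at which so few features need not hold a member. The 64 features of FMR1 changed by -0.90 to 0.78 in the CGG pair, by -0.51 to 0.94 in the overexpression pair and by -0.91 to 0.77 in the knockdown pair. Probe and feature sequences were not used here, so a likeness of the members to the construct was not analysed.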

How the data were processed

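The authors deposited log2 signals, per the file headers from SST-RMA, which rescales the signal space before the arrays are summarised jointly, for 135750 transcript clusters at the gene level and for exon features in a separate file. The submitters' processing notes name RMA and the Transcriptome Analysis Console without versions. The effect of this scaling on the size of the rises was not examined, and monkey transcripts that differ from the human probes can read low in all groups. All 483868 exon regions and junctions were used without a filter. The 43111 gene-level rows of the exon table equal those of the gene table (largest difference 0.00). Symbols came from the platform annotation; only single symbols were used as names.

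Groups were read from array titles. Group means of the 18 arrays were fitted with limma 3.58.1 (R 4.3.3, with the data.table package, version 1.17.8; lmFit and eBayes, no covariate), two-sided, with Benjamini-Hochberg adjustment over all rows of a table and a threshold of 0.05. Of these comparisons 3 were differences between rises and 4 were TRA2A contrasts. The fit was tested on simulated data. The members, lists and tests were chosen with earlier results of these data known. Named were the 12 largest mean rises, hosts with at least 3 members, 3 features on each side of the threshold, the 5 largest and 5 smallest ratios, the 3 largest and 3 smallest gaps to the gene, and up to 5 called members per contrast (otherwise the 2 smallest p-values), with FMR1 as a range; further members and hosts were picked with their values in view. Alternative settings were other thresholds, medians, quantile normalization, a filter on low rows, other variance settings, rehybridisation as a covariate, a block for the replicate number, and leaving out arrays.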

Additional observations from a re-analysis of the deposited data

Results flagged for a closer look

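The features and hosts below are listed because a test of the difference itself found a different rise with the construct between pairs of groups, in limma with adjustment over all rows. Each difference is the log2 rise in the named pair minus that in the CGG pair, and each was below 0. The exon features had been selected with a floor on each rise, on the same arrays as the differences. Over all features the changes spread more widely in the CGG pair, and the differences were not adjusted for this. With the variance of only the arrays compared, the called members fell to 0 in the overexpression pair and 1 in the knockdown pair.

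In the overexpression pair the rise was smaller for the junctions of KMT5C (-2.11), NKD1 (-2.10) and CYP2W1 (-1.98) and for the regions of FTH1P8 (-2.07), HSPD1 (-2.04) and TC1500010797.hg.1 (-1.96). In the knockdown pair it was smaller for FTH1P8 (-2.12) and KMT5C (-1.98). All 8 of these calls were lost without CGG array 3 (adjusted p = 0.0585 to 0.125), while the differences were then -1.79 to -2.09 in the overexpression pair and -2.14 and -1.91 in the knockdown pair. At the gene level the change of SFXN3 was smaller in the overexpression pair (-1.44) and the knockdown pair (-1.42), and that of MVD in the overexpression pair (-1.50). SFXN3 was also higher in GFP_TRA (1.15) and siTRA cells (1.18) than in controls, and both of its differences share the control and CGG arrays. SFXN3 in the overexpression pair was lost only without CGG_TRA array 1 (adjusted p = 0.056), and in the knockdown pair without any one of 4 arrays. MVD was lost without any one of 13 arrays, with quantile normalization (adjusted p = 0.0557) and with a replicate block (adjusted p = 0.0533).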

How the results depend on the processing

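A floor of 1.0 on each rise gave 796 members in 702 clusters, 49.4% of them junctions, and a floor of 2.0 gave 256 in 232. Medians of arrays (423 members, 394 shared), quantile normalization (439, 437 shared), feature minus gene (400, 381 shared) and both rehybridised arrays left out (387, 381 shared) moved the count less. Leaving out single arrays gave 387 to 468 members, 349 to 411 hosts and 56.1 to 58.5% junctions.

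Members called in the overexpression minus CGG pair went from 6 to 14 among rows above the median, 0 with the variance of only the arrays compared, 14 with trended robust variance and 46 with rehybridisation as a covariate. The knockdown minus CGG pair (2) went to 4, 1 and 11 with the filter, the compared arrays and the covariate. Overexpression against control (2) went to 1 and 4 with the compared arrays and the covariate, and knockdown against control (10) to 16, 0 and 29 with the filter, the compared arrays and the covariate. Overexpression within construct cells (5) went to 14 with quantile normalization, 0 with the compared arrays, 11 with trended variance and 29 with the covariate. The cause was not tested, beyond the smaller number of rows or arrays in some settings.

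Without single arrays these counts ranged over 0 to 61, 0 to 6, 0 to 4, 4 to 13 and 0 to 44. Knockdown within construct cells ranged over 0 to 4 and overexpression minus knockdown was 0 throughout. Hosts called at the gene level ranged over 5 to 10 in the construct pairs and 9 to 34 in the other comparisons. With the replicate number as a block the counts were 3 for the overexpression minus CGG pair, 1 for overexpression against control and 2 for overexpression within construct cells. Deviations from the group mean were correlated between arrays of different groups. Arrays with the same number had correlations of -0.291 to 0.228 (median -0.037), and other arrays -0.314 to 0.284 (median 0.01). With 3 arrays per group these values cannot decide whether equal numbers mark a shared culture or batch. Over all settings 971 repeats of single calls kept the call and 339 lost it, and no direction reversed.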
